A study of Mus musculus with 10 samples.

Results

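The insulin-like growth factor (IGF) system was examined through 10 genes, the ligands Igf1 and Igf2, the receptors Igf1r and Igf2r, and the binding proteins Igfbp2 to Igfbp7. They were taken by symbol from the 29766 genes that had a probe set with 1 gene symbol, and each of the 10 was measured by 1 probe set. Expression came from 5 runner samples (RW), of mice kept singly with a running wheel in the cage, and 5 control samples of mice kept singly without a wheel. The groups were read from the sample titles and from the wording on the wheel, since the labels call the mice of both groups young controls. All were CBA/CaJ mice aged 6 months with normal hearing, a strain that loses hearing late in life, and no genotype, sex or running distance was given in the labels. The labels name the tissue as cochlea and the extracted material as inner ear, and do not tie arrays to single animals, so the p-values given below reflect variation among these arrays that could be technical in part or whole.

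IGF1 and IGF2 are secreted growth factors that act through the tyrosine kinase receptor IGF1R, while IGF2R takes up IGF2 for degradation. The binding proteins hold the ligands in tissue and blood and govern how much reaches the receptor. In the inner ear IGF1 is known as a survival factor for hair cells and neurons, and mice without Igf1 have hearing loss.

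Values are log2 expression per probe set, and levels of different genes cannot be set against each other on this scale. Of the 29766 genes tested with limma, 2 passed at an adjusted p under 0.05 (0.00672%), and none of the 10 IGF genes was among them. At an unadjusted p under 0.05, 3 of the 10 were called and all 3 were lower in runners, namely Igf1, Igfbp7 and Igfbp2. The same threshold called 7.13% of all genes, with 3.92% lower and 3.21% higher in runners. The means of 7 of the 10 lay below the control means, against 49.5% of all genes, and the median difference was -0.14 over the 10 and 0.00091 over all genes. By role, both ligands and 5 of 6 binding proteins had lower means in runners, and both receptors had higher ones. The groups overlapped for all 10 genes, and for all but 0.927% of genes tested.

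**Figure D1:**
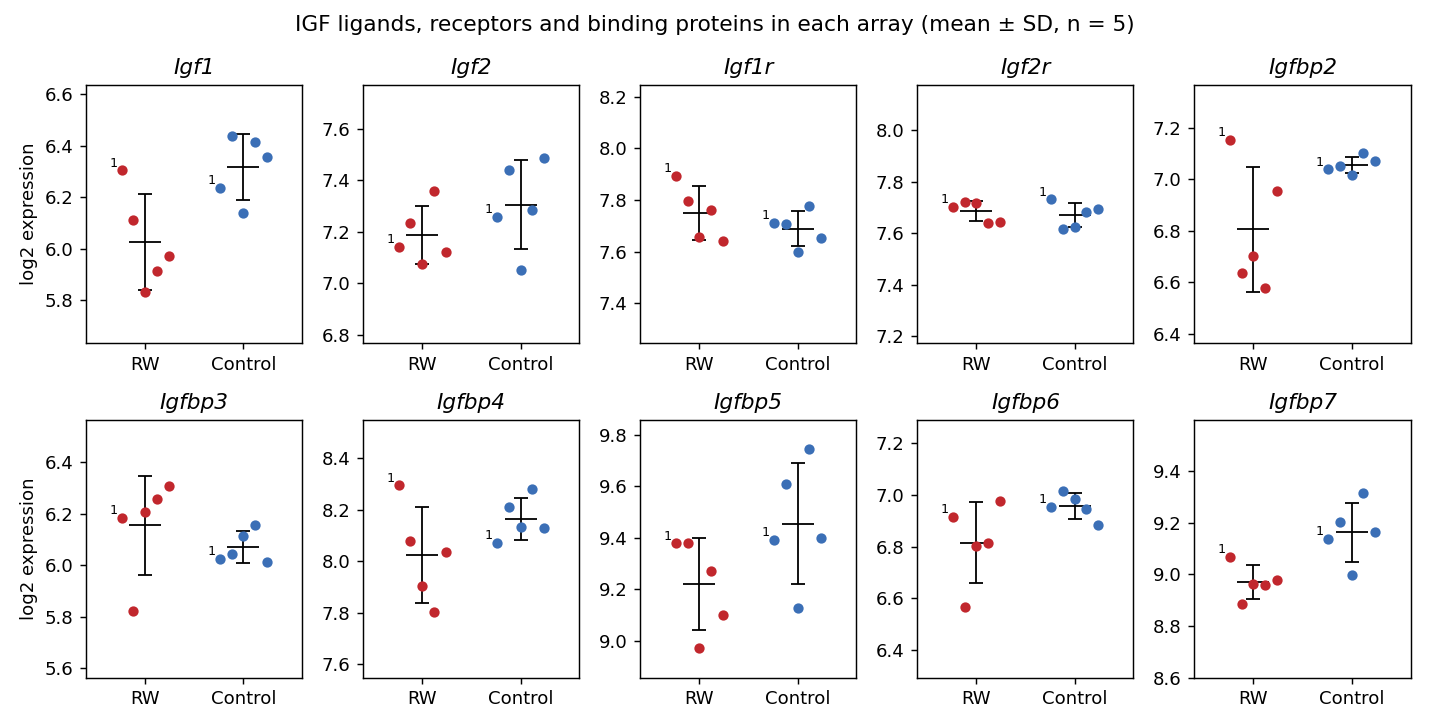
Log2 expression of the 10 IGF genes (vertical axis, each panel 1 log2 unit high) in 5 runner arrays (RW, red) and 5 control arrays (blue), with the mean and SD in black. The points marked 1 are runner 1 and control 1. For Igf1 and Igfbp2 the runner mean lies below the control mean while runner 1 lies among or above the controls.

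The upstream sequences of the 3 genes with the smallest p, and of Igf2r as the gene with the smallest difference, are shown to set the members with a lower runner mean beside the one nearest to 0. Each line gives the 100 bases before the annotated start, 5′ to 3′ on the strand of the gene, from RefSeq on GRCm38.p6. Capitals mark matches, on either strand, to 3 short motifs, and adjoining matches run together. The GC box, which zinc finger activators such as SP1 bind, was searched as GGGCGG. The TATA box of core promoters was searched as TATAAA. The E-box, read by factors that include the circadian clock proteins, was searched as CACGTG, which is its own reverse complement.
Igf1: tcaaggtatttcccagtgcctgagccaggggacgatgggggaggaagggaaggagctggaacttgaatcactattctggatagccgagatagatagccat
Igfbp7: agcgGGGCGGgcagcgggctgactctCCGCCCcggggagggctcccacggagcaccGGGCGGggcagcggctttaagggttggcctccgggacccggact
Igfbp2: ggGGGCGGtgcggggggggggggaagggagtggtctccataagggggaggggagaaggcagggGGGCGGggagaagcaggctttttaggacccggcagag
Igf2r: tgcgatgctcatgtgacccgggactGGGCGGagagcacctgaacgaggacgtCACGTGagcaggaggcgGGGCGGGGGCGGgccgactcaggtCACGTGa
These stretches are chr10:87861011-87861110 (+ strand), chr5:77408046-77408145 (- strand), chr1:72824380-72824479 (+ strand) and chr17:12769707-12769806 (- strand), and for Igfbp2, which has 2 listed starts, the first was used. The Igf1 stretch held none of the 3 motifs and had 52% G and C bases, whereas those of Igfbp7, Igfbp2 and Igf2r had 77%, 71% and 69%. All 10 genes matched the promoter table, with 14 starts in all. Within 250 bases before the start, searched on both strands, the GC box was found at 6 of the 14 starts and at 32.7% of all 32851 starts in the table. The 6 belonged to Igfbp2, Igfbp7, Igf1r, Igf2r and Igf2. The TATA box was found at 2 of 14, those of Igfbp4 and Igfbp6, and at 12.4% of all starts, and the E-box at 2 of 14, those of Igfbp2 and Igf2r, and at 6.02% of all starts. A match is a run of letters and not a measured binding site, and the motifs were not shared by the 3 genes with the smallest p.

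Among the ligands, Igf1 had the smallest p of the family. Its log2 expression was 6.30, 6.11, 5.83, 5.91 and 5.97 in runners 1 to 5, against 6.24, 6.44, 6.14, 6.42 and 6.36 in controls 1 to 5. Runners 2 to 5 lay below every control, while runner 1 lay within the range of the controls. The mean was 6.03 ± 0.19 in runners and 6.32 ± 0.13 in controls (SD, n = 5 each). The difference was -0.29 ± 0.091 (SE, 95% interval -0.49 to -0.092), a runner level of 81.8% of control, and did not pass (limma unadjusted p = 0.00762, adjusted p = 0.592). Without runner 1 it was -0.36 ± 0.079 (adjusted p = 0.0693), and over its 20 alternative settings the adjusted p lay between 0.0566 and 0.992.

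Igf2, the ligand transcribed from the paternal copy in most tissues, had 7.14, 7.24, 7.07, 7.36 and 7.12 in runners, against 7.26, 7.44, 7.05, 7.28 and 7.49 in controls. No runner lay below the lowest control, control 3. The difference of -0.12 ± 0.086 (SE, 95% interval -0.30 to 0.068) was within the spread between arrays (limma adjusted p = 0.788). It was -0.18 without control 3 (limma unadjusted p = 0.0367, adjusted p = 0.682) and -0.072 without control 5.

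Neither receptor differed beyond the spread. Igf1r, which carries the growth signal of both ligands, was between 7.64 and 7.89 in runners and between 7.60 and 7.78 in controls, with runners 1 and 2 above every control. Its difference was 0.060 ± 0.062 (SE, limma adjusted p = 0.864), with a 95% interval of -0.074 to 0.19 that includes differences in both directions. It was 0.024 without runner 1 and 0.038 without control 3. Igf2r, which also sorts lysosomal enzymes, had the narrowest runner range of the family, from 7.64 to 7.72, against 7.62 to 7.73 in controls. Its difference was 0.014 ± 0.049 (SE, 95% interval -0.092 to 0.12, limma adjusted p = 0.972), and between 0.0012 and 0.030 with each array left out in turn.

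Igfbp7 and Igfbp2 were the binding protein genes with the smallest p. IGFBP7 binds IGFs weakly and is abundant in vessel walls and matrix. Igfbp7 had 9.07, 8.88, 8.96, 8.96 and 8.98 in runners, against 9.14, 9.20, 8.996, 9.32 and 9.16 in controls. All 5 runners were below the control mean and 4 were below every control. The mean was 8.97 ± 0.066 in runners and 9.16 ± 0.12 in controls (SD, n = 5 each), a difference of -0.19 ± 0.064 (SE, limma unadjusted p = 0.0108, adjusted p = 0.607).

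Igfbp2, which encodes a carrier of both ligands that is made by many epithelia and glia, stood out by its spread. It had 7.15, 6.64, 6.70, 6.58 and 6.96 in runners, against 7.04, 7.05, 7.02, 7.10 and 7.07 in controls. Runner 1 was above every control and the other 4 runners were below every control. The SD was 0.24 in runners and 0.031 in controls (n = 5 each). The difference was -0.25 ± 0.097 (SE, limma unadjusted p = 0.0241, adjusted p = 0.636), and without runner 1 it was -0.34 ± 0.074 (adjusted p = 0.0694). Over its 20 alternative settings the adjusted p lay between 0.0670 and 0.992.

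Igfbp5, the neighbour of Igfbp2 with no protein-coding gene between them, encodes a carrier that binds to matrix and is made by bone cells. It had 9.38, 9.38, 8.97, 9.27 and 9.10 in runners, against 9.39, 9.61, 9.13, 9.74 and 9.40 in controls. All runners lay below the control mean, but 3 of them lay above control 3. The difference was -0.23 ± 0.11 (SE, limma unadjusted p = 0.0624, adjusted p = 0.704). Igfbp4, whose product withholds IGFs until the protease PAPPA cleaves it, had 8.29, 8.08, 7.90, 7.80 and 8.03 in runners, against 8.07, 8.21, 8.13, 8.28 and 8.13 in controls. Runner 1 was again the highest of all 10 arrays. Its difference was -0.14 ± 0.085 (SE, limma adjusted p = 0.760), and -0.21 ± 0.071 without runner 1 (adjusted p = 0.189, with 0.153 to 0.992 over the 20 settings). Without runner 4 it was -0.086 (limma unadjusted p = 0.307).

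Igfbp6, whose product prefers IGF2, was between 6.57 and 6.98 in runners and between 6.88 and 7.02 in controls, with a difference of -0.14 ± 0.073 (SE, limma adjusted p = 0.719), and -0.080 without runner 2. Igfbp3, whose product is the main IGF carrier of blood, was the 1 binding protein gene with a higher runner mean. It had 6.18, 5.82, 6.21, 6.26 and 6.31 in runners, against 6.02, 6.04, 6.11, 6.16 and 6.01 in controls. Runners 1, 3, 4 and 5 lay above every control, and runner 2 lay below every control. The difference was 0.085 ± 0.084 (SE, limma adjusted p = 0.858), 0.17 without runner 2 and 0.047 without runner 5.

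**Figure D2:**
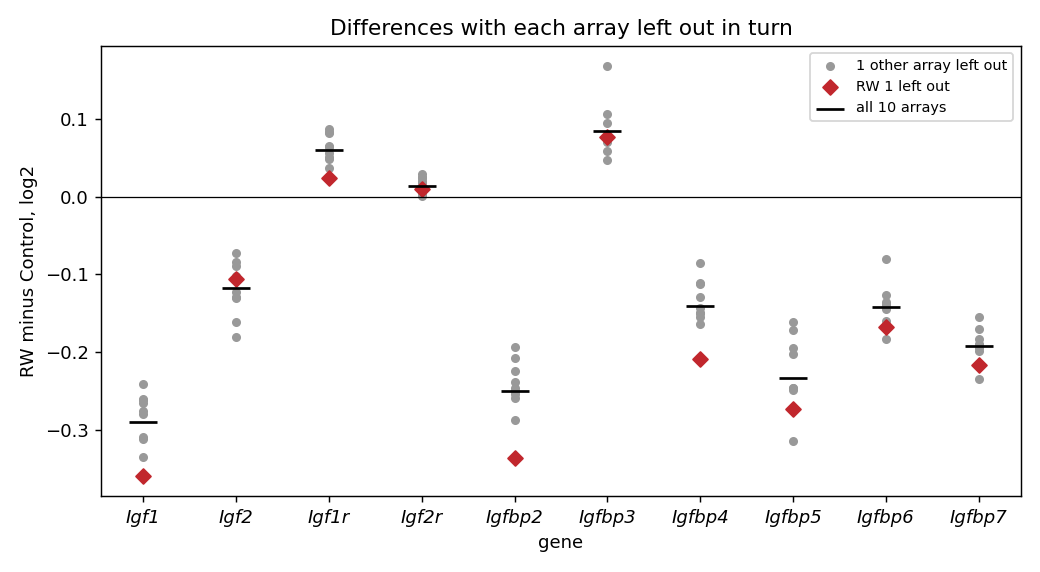
Difference between runners and controls on the log2 scale (vertical axis) for each IGF gene, with all 10 arrays (black bars), without runner 1 (red diamonds) and without each other array (grey points). The signs do not change, and leaving out runner 1 moves Igf1 from -0.29 to -0.36 and Igfbp2 from -0.25 to -0.34.

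Runner 1 bears on these counts. It was the highest runner for 5 of the 10 genes, and exceeded the average of runners 2 to 5 by 0.43 for Igfbp2, 0.35 for Igf1 and 0.34 for Igfbp4. Without it 6 of the 10 were called at an unadjusted p under 0.05, all lower in runners, namely Igf1, Igfbp2, Igfbp4, Igfbp5, Igfbp6 and Igfbp7. The share of all genes called also grew, to 14.5%, with 8.59% lower in runners. None of the 10 passed at an adjusted p under 0.05 there, while 99 genes did (0.333%). Without runner 1 and control 1 the count was 4 of 10, against 15.5% of all genes, and 0 of 10 passed at an adjusted p under 0.05, against 1.43%. The count at the unadjusted threshold was 2 without runner 3 (5.68% of all genes called) and without runner 4 (6.05%), when Igfbp2 was not called. Igfbp2 was not called without runner 2 either (limma unadjusted p = 0.0612), nor without moderation of the variance (unadjusted p = 0.0511).

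Several of the 10 genes were correlated over the 10 arrays. Of the 45 pairs, 31 had a positive Pearson correlation, and 4 passed a permutation test of r adjusted over the 45. By rho, Igf1 with Igfbp2 (permutation adjusted p = 0.0362) and Igfbp2 with Igfbp7 (permutation adjusted p = 0.0324) also passed. The permutations crossed the groups, so a difference between runners and controls shared by 2 genes adds to r and lowers its p-value. No p-value was computed with group means taken out. Pairs were not counted for other sets of 10 genes, so the counts do not show a likeness particular to the IGF genes. Igf1 and Igfbp4 had r = 0.87 and rho = 0.83 (permutation adjusted p = 0.0264 and 0.0362), and r = 0.75 without the 2 arrays farthest from the median of Igf1. Igf1 and Igfbp5 had r = 0.86 and rho = 0.88 (permutation adjusted p = 0.0264 and 0.0324), and r = 0.86 without the 2 farthest. Igfbp2 and Igfbp4 had r = 0.84 and rho = 0.85 (permutation adjusted p = 0.0264 and 0.0324), and r = 0.90 without the 2 farthest. Igf1 and Igfbp7 had r = 0.82 and rho = 0.89 (permutation adjusted p = 0.0465 and 0.0324), and r = 0.85 without the 2 farthest. With each group's mean taken out, r was 0.85, 0.81, 0.79 and 0.62 for these pairs in the same order. Neighbouring Igfbp2 and Igfbp5 had r = 0.44 and rho = 0.59 (permutation adjusted p = 0.492 and 0.259), r = 0.72 without the 2 farthest, and r = 0.17 with group means taken out. Igf1 and its receptor gene had r = 0.27 and rho = 0.18 (permutation adjusted p = 0.689 and 0.791), r = 0.31 without the 2 farthest, and r = 0.81 with group means taken out.

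Genes with the most similar pattern were found by the Pearson correlation, over the 10 arrays, of deviations from the group means, given here as a description. For Igf1 they were the adenylyl cyclase Adcy6 (0.99), Veph1 (0.99), the zinc finger gene Tshz2 (0.98) and the transcriptional coactivator Eya4 (0.98), mutated in a form of deafness. For Igfbp2 they were the interferon regulatory factor Irf1 (0.98), the melanosome transporter Slc45a2 (0.97), the homeodomain factor Isl1 (0.96) and Cep112 (0.96). For Igfbp7 they were the heparan sulfatase Sulf1 (0.97), the mitochondrial kinase Ak3 (0.94), the lipid enzyme Agmo (0.93) and decorin, Dcn (0.93). These were the highest of the correlations with the protein-coding genes considered, over only 10 arrays that share their normalization. Without group means taken out, Igfbp7 correlated at 0.26 with Ak3 and 0.10 with Agmo, against 0.70 with Sulf1 and 0.95 with Dcn. Ak3 and Agmo had higher means in runners, by 0.062 and 0.12, whereas Igfbp7 had a lower one.

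Markers of several tissues moved with the IGF genes. In these bulk samples, fewer cells of a type and less RNA per cell cannot be told apart. Cochlear genes were present, with Coch, a spiral ligament gene, at 11.09 in runners and 11.23 in controls. So were genes of other tissues, such as Gabra6 of cerebellar neurons, at 10.81 in runners and 10.56 in controls. Arrays correlated at 0.991 to 0.997 within runners, 0.995 to 0.997 within controls and 0.992 to 0.996 between groups. Runner 1 was the highest runner in 12 of 17 marker lists, and 14 of the 17 list means were lower in runners.

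The stria vascularis list (8 of 8 genes measured) had a mean between 6.71 and 7.15 in runners and between 6.98 and 7.16 in controls, with runner 1 at the top of the runners. Of its genes 7 were lower in runners, 4 at an unadjusted p under 0.05, beside 49.5% of all genes with a lower mean and 3.92% lower at that p. The spiral ligament list (7 of 7 measured, all lower, 5 at that p) lay between 7.93 and 8.58 in runners and between 8.34 and 8.57 in controls. Supporting cell and tectorial genes (7 of 8 measured, all lower, 4 at that p) lay between 6.55 and 7.14 in runners and between 6.88 and 7.10 in controls. With group means taken out, the Igf1 level correlated with these 3 list means at 0.94, 0.87 and 0.90 over the 10 arrays. The Igfbp4 level did so at 0.89, 0.94 and 0.87. Hair cell genes (8 of 8 measured, all lower, 3 at that p) lay between 4.84 and 5.25 in runners and between 5.08 and 5.26 in controls. Their mean correlated in the same way at 0.88 with Igf1 and 0.77 with Igfbp4. The spiral ganglion neuron mean was higher in runners, by 0.081, but lay between 7.62 and 8.16 in runners and between 7.71 and 7.96 in controls. Of its genes (8 of 8 measured) 2 were lower, and the 3 at that p went in both directions. This list mean correlated at 0.37 with Igf1 and 0.26 with Igfbp4. The cerebellar neuron list (7 of 8 measured, all 7 higher in runners, 0 at that p) was higher, between 8.92 and 9.50 in runners and between 9.04 and 9.24 in controls, with runner 1 the lowest array. Its correlation was -0.91 with Igf1, -0.94 with Igfbp4, -0.83 with Igfbp2 and -0.55 with Igfbp7. The endothelium list (8 of 8 measured, all lower, 0 at that p) lay between 6.51 and 6.72 in runners and between 6.61 and 6.75 in controls. Of the 17 list means it had the highest correlation with Igfbp2, at 0.86, and with Igfbp7, at 0.78. It correlated with Igf1 at 0.81 and with Igfbp4 at 0.86. Igfbp2 correlated nearly as highly with the supporting cell (0.84), spiral ligament (0.81) and hair cell (0.79) means. Its correlation was 0.69 with the stria vascularis mean and 0.25 with the spiral ganglion mean. These correlations describe 10 arrays that share their processing.

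The osteoblast list (7 of 8 measured, all lower, 6 at that p) and the B lineage list (7 of 8 measured, all lower, 7 at that p) were the 2 lists whose groups did not overlap, beside 3.92% of all genes lower at that p and 0.927% of single genes without overlap. Osteoblast means lay between 7.40 and 7.79 in runners and between 7.93 and 8.20 in controls. B lineage means lay between 5.99 and 6.47 in runners and between 6.54 and 6.88 in controls. Both lists were chosen with earlier results of these data known. The osteoblast list holds the 2 genes that passed over all genes, and the B lineage list the genes ranked 3 and 4 by p. Their counts are thus no independent evidence, and a list mean cannot be set against single genes. Macrophage genes (8 of 8 measured, all lower, 5 at that p), which belong to a known source of Igf1, lay between 6.43 and 6.85 in runners and between 6.68 and 6.87 in controls. The adipocyte list (7 of 8 measured, all 7 higher in runners, 4 at that p, beside 3.21% of all genes higher) lay between 5.55 and 6.07 in runners and between 5.17 and 5.56 in controls. With group means taken out, its correlation was -0.23 with Igf1, 0.020 with Igfbp2 and 0.19 with Igfbp7. On the same values Igf1 correlated with the osteoblast mean at 0.69, with the B lineage mean at 0.85 and with the macrophage mean at 0.82. Such correlations were not limited to genes with a lower runner mean. Igf1r, with a higher one, correlated at 0.79 with the osteoblast, 0.75 with the B lineage and 0.72 with the stria vascularis mean. Its correlation was -0.70 with the cerebellar mean and 0.14 with the spiral ganglion mean. The part of tissue makeup in the values of the 10 genes was not tested.

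**Figure D3:**
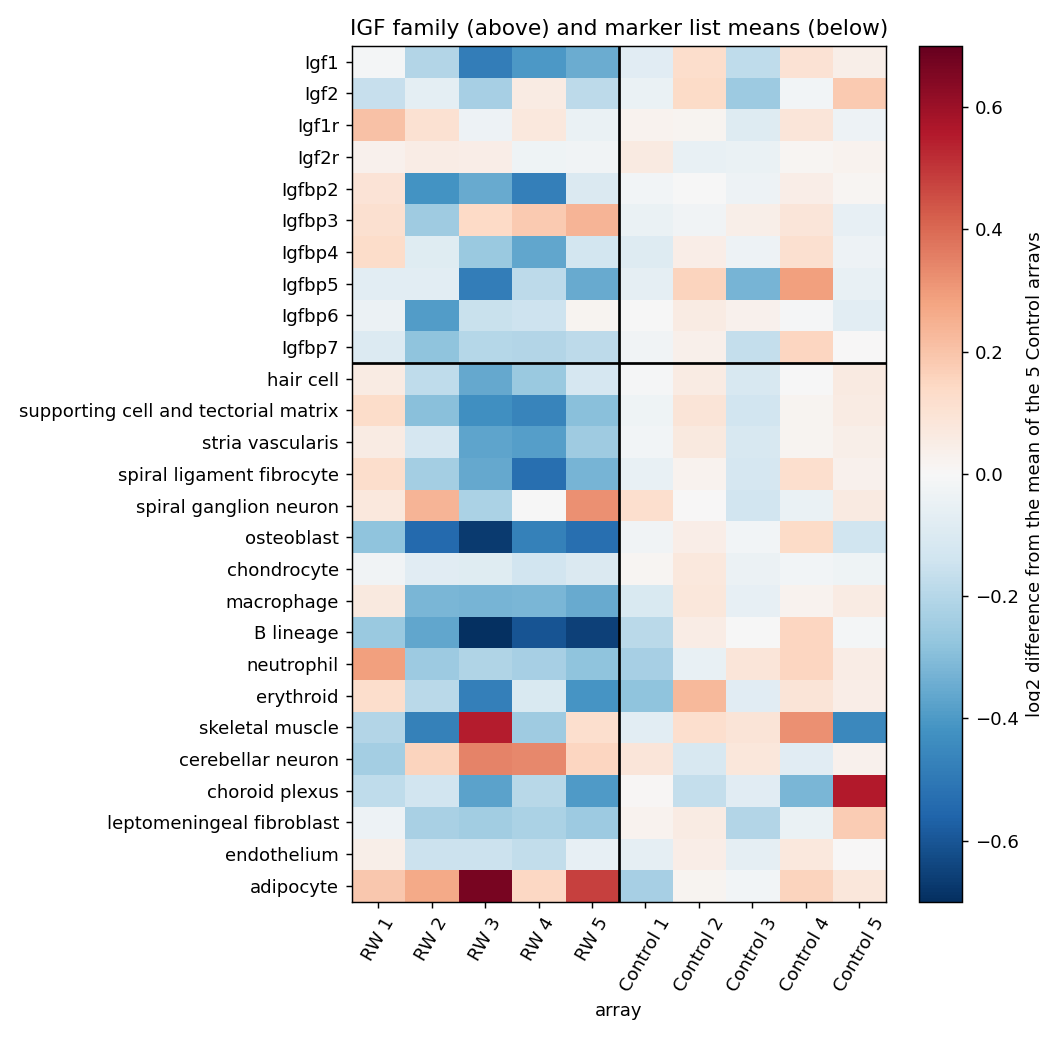
Log2 difference from the mean of the 5 control arrays (colour, red higher and blue lower) for the 10 IGF genes above the line and 17 marker list means below it, with runner arrays on the left and control arrays on the right. In runners 3 and 4 Igf1, Igfbp2 and Igfbp4 are low, as is every cochlear list except that of spiral ganglion neurons. The cerebellar list is high there, and runner 1 shows neither. The spiral ganglion list was low in runner 3 (7.62) but not in runner 4 (7.84), against a control mean of 7.84. Runners 2 and 5 also have a high cerebellar mean (9.31 in each), and Igfbp2 is low in runner 2 (6.64).

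The rest of the pathway was followed through 54 genes in 6 lists, of which 45 were measured. None passed over all genes, and 3 were called at an unadjusted p under 0.05, all lower in runners, beside 7.13% of all genes in either direction and 3.92% lower. The median difference was -0.030 over the 45 genes.

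All 3 belonged to the 13 genes whose products carry an IGFBP-like domain at the amino terminus, of which 11 had lower means in runners. Kazald1, a secreted protein of bone-forming tissue, had 5.67, 5.36, 5.54, 5.43 and 5.63 in runners, against 5.89, 5.78, 5.87, 5.69 and 5.77 in controls. All 5 runners lay below all 5 controls, and the difference was -0.27 ± 0.070 (SE, limma unadjusted p = 0.00198, adjusted p = 0.514). Ccn4, a matrix protein induced by Wnt signals, had 6.03, 5.98, 5.66, 6.00 and 5.83 in runners, against 6.04, 6.09, 6.09, 6.11 and 6.07 in controls. Its groups did not overlap either, so 2 of the 45 genes were without overlap beside 0.927% of all genes, and the difference was -0.18 ± 0.070 (SE, limma adjusted p = 0.629). Esm1, the proteoglycan endocan of endothelium, overlapped between groups, at 5.83 to 6.66 in runners and 6.23 to 6.70 in controls, with a difference of -0.37 ± 0.14 (SE, limma adjusted p = 0.631). Ccn2, connective tissue growth factor, had a higher mean in runners, by 0.18 ± 0.085 (SE, limma adjusted p = 0.704).

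In the main fit, with all 10 arrays and the group alone, upstream and downstream genes were called at neither threshold. Under other settings some were called at the unadjusted threshold. Without runner 1 these were Socs2, Pappa, Grb10 and Eif4ebp1 (14.5% of all genes called). The 6 genes of growth hormone signalling, which drives Igf1 in liver, had a median difference of -0.041, with the hormone-induced inhibitors Cish at -0.086 ± 0.054 (SE) and Socs2 at -0.10 ± 0.064 (SE), and the receptor gene Ghr at 0.0043 ± 0.074 (SE). Of 4 measured genes of the ternary complex and of binding protein cleavage, the protease gene Pappa differed by -0.17 ± 0.11 (SE) and Stc1, an inhibitor of that protease, by 0.16 ± 0.077 (SE). The 1 measured gene of the Igf2 mRNA list, the RNA-binding protein gene Igf2bp3, differed by -0.0077 ± 0.070 (SE). Among 6 measured insulin receptor and adaptor genes, the adaptor Irs2 differed by 0.13 ± 0.067 (SE) and Grb10, an adaptor that restrains the receptors, by 0.11 ± 0.057 (SE). The 15 measured genes of the PI3K, AKT, mTOR and FOXO cascade spanned -0.13 to 0.087, from the translation repressor Eif4ebp1 to the kinase Pdpk1, with 5 lower and 10 higher. In the main fit the limma adjusted p of the genes in these lists was 0.704 or more. The number of arrays limits what size of difference could be seen.

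**Figure D4:**
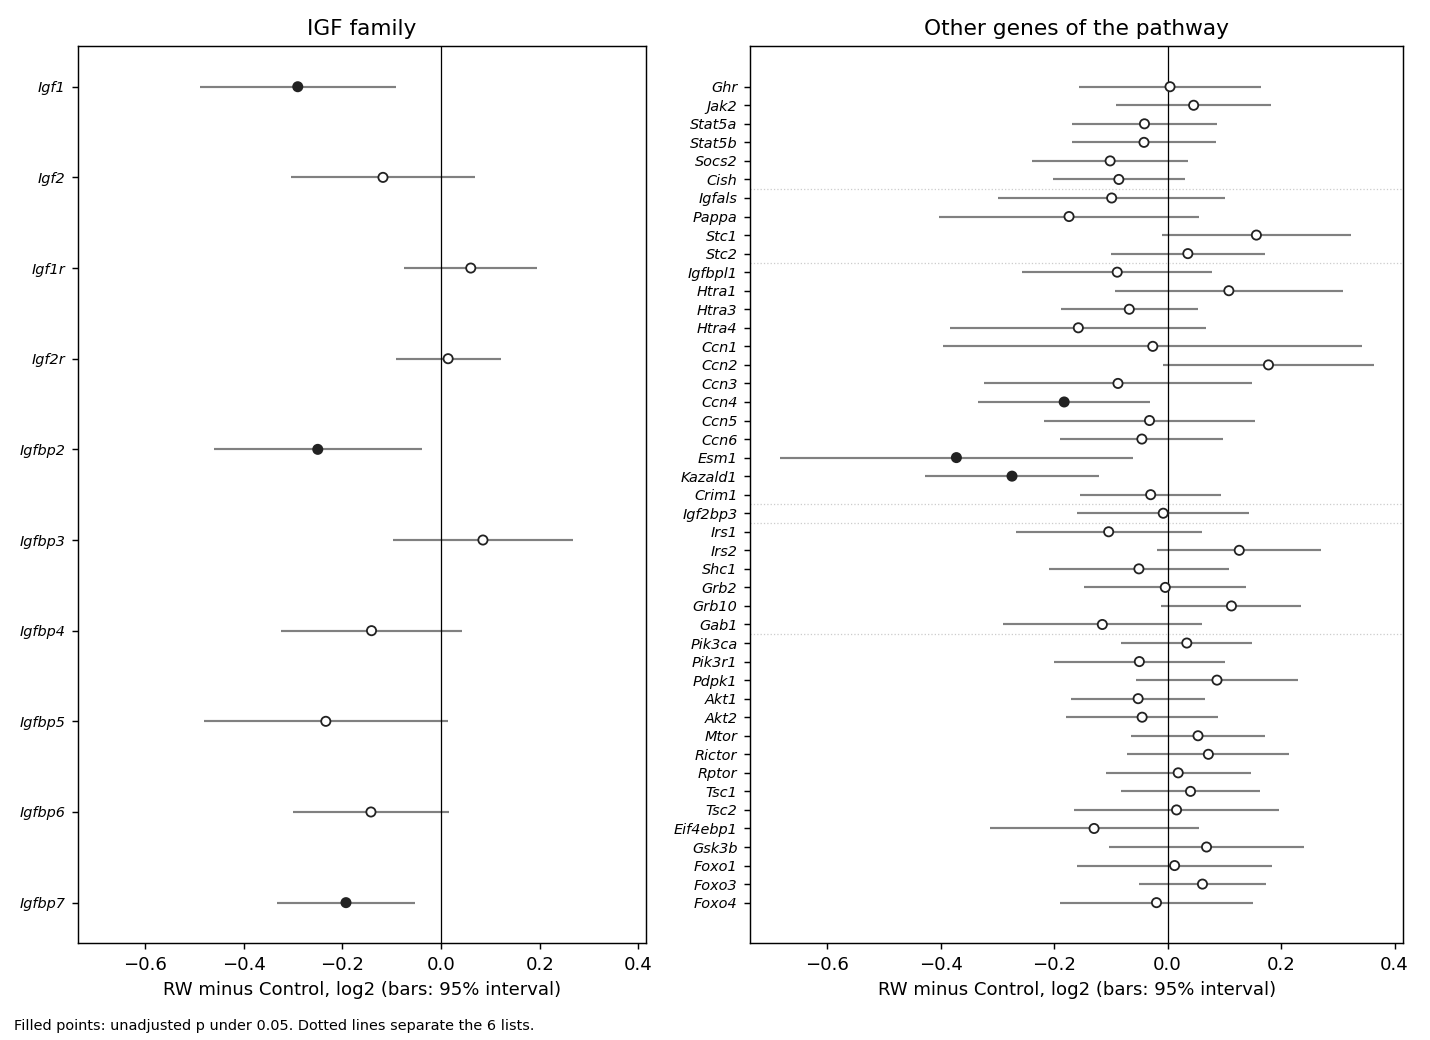
Difference of runner minus control means on the log2 scale (horizontal axis) with 95% intervals for the 10 IGF genes (left) and 45 other genes of the pathway (right). Filled points have an unadjusted p under 0.05 and are Igf1, Igfbp2, Igfbp7, Ccn4, Esm1 and Kazald1, all below 0.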

How the data were processed

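Total RNA of frozen, powdered tissue was labelled with biotin and hybridized to 1 array per sample, per the labels' protocols. The values are log2 expression as deposited by the authors; per the submitters' processing notes RMA (background correction, quantile normalization, probe summary) and Partek were used, with no version stated. Neither filters nor the genome build of the array could be taken from the labels (not given in the sources used here). Quantile normalization hides a change shared by most genes, and RMA understates fold changes of dim genes.

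Of 39295 probe sets, 30130 had 1 gene symbol, 2146 several and 7019 none, and 827 symbols were updated through Entrez identifiers to RefSeq names. The probe set with the highest mean was kept for a gene, leaving 29766 genes. A linear model with the group alone was fitted to every gene (limma 3.58.1, lmFit and eBayes, R 4.3.3), with two-sided p-values adjusted by Benjamini-Hochberg over all genes, and 95% intervals come from the moderated fit. Simulated data had these means and spreads, with 100 genes changed by each size. In them 83% of genes changed by 0.5 log2 were recovered, with 13 false calls over all sizes among 29766 genes. Their noise was drawn independently for each gene, with no shift shared by the genes of an array. The 10 IGF genes differed by -0.29 to 0.085, and changes under 0.5 were not simulated. The share recovered therefore does not carry over to them. Correlations between the 10 genes used 100000 permutations. All 10 passed a dim gene filter at log2 5.

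The 10 genes, the pathway and marker lists and the alternatives were chosen with earlier results of these data known. Named genes were the 10, pathway genes at an unadjusted p under 0.05, otherwise the 2 with the smallest p per list, and the 4 protein-coding genes most like each of the 10 with an unadjusted p under 0.05, with large multigene families left out. Ghr, Ccn2, Coch and Gabra6 were named outside that rule after their values were seen. Alternatives were repeated quantile normalization, median centring, a dim gene filter, other variance moderation, array weights, other handling of probe sets, a replicate block and each array left out. Figures used matplotlib 3.10.9 in Python 3.11.15.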

Additional observations from a re-analysis of the deposited data

Results flagged for a closer look

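Igfbp3 in runner 2 was the 1 value that lay far from the rest of its group, at 5.82 on the log2 scale, with the other 4 runners between 6.18 and 6.31. Its gap was 0.748 of the range of the group. Of 20 groups of 5 arrays examined for the 10 genes, 1 was flagged, and chance flags about 1 in 20. Without runner 2 the Igfbp3 difference was 0.17 (limma unadjusted p = 0.0114, adjusted p = 0.623).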

How the results depend on the processing

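The 10 IGF genes kept their direction and stayed without a call over all genes in all 200 results from 20 alternative settings. The count of all genes past the threshold was 2, and 1 without moderation of the variance, 15 with array weights, 2 to 99 with each array left out in turn (99 without runner 1) and 426 without runner 1 and control 1. The count of IGF genes at an unadjusted p under 0.05 was 3 (7.13% of all genes called), 5 with array weights (12.9%), 2 without moderation (7.02%) and 2 to 6 with each array left out. It was 6 without runner 1 (14.5%) and 5 without control 3 (7.17%), and the share of all genes lay between 4.84% and 14.5% over these left-out arrays. For the other pathway genes that count was 3 of 45, beside 7.13% of all genes. Median centring gave 5 (8.14% of all genes) and array weights gave 7 (12.9%). Dropping runner 1 also gave 7 (14.5%), as did dropping runner 1 together with control 1 (15.5%). Single arrays left out gave 2 to 7, with 6 when runner 2 was dropped (7.37%) and 5 when control 4 was (5.94%). Median centring moved every difference by 0.023. Same-numbered arrays of the groups correlated in their deviations at -0.25, 0.061, 0.28, 0.070 and -0.19. These values cannot show whether the numbers pair the samples. With the replicate block 2 genes passed and 4 IGF genes were called at the unadjusted threshold (6.67% of all genes), the fourth being Igfbp5. The cause of these changes was not tested, and 5 arrays a group limit the precision.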

Other observations

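Igfbp1, the binding protein gene next to Igfbp3 on the chromosome, was not among the 10 genes and was looked at afterwards. It was dim, between 4.05 and 4.39 on the log2 scale in runners and between 4.03 and 4.42 in controls, and differed by -0.049 ± 0.081 (SE, limma adjusted p = 0.924). Its 95% interval was -0.23 to 0.13.

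The spread of Igfbp2 was 7.73 times as large in runners as in controls (SD, n = 5 each), that of Igfbp6 3.15 times and that of Igfbp3 3.12 times, while for Igfbp7 it was 0.573 times and for Igf2 0.656 times. These ratios were not tested.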
